A study of Mus musculus with 36 samples.

Results

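The regions described here were the stretches of hippocampal chromatin that carried a peak of histone H3 lysine 27 acetylation (H3K27ac) in 3 of 4 conditions and lacked one only in control mice given ethanol. Joining the overlapping or adjacent peaks of the 4 deposited H3K27ac lists gave 149468 regions on the assembled chromosomes. Of these, 7087 regions (4.74%) overlapped a peak of untreated control mice, of untreated ACSS2 knockdown mice and of ethanol-treated ACSS2 knockdown mice and no peak of ethanol-treated control mice. These 7087 regions are called the members below. They were chosen by the presence and absence of H3K27ac peaks, so H3K27ac values are given as a description.

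All mice were males aged 8 weeks, and the tissue was dorsal hippocampus. Control mice received a control vector in the brain. The sources used here do not give its content. Knockdown mice received the vector U6.shACSS2.CMV.EGFP, an AAV2/9 virus with a short hairpin RNA against Acss2, by stereotaxic injection into the dorsal hippocampus. In each of these groups mice were either given ethanol intraperitoneally at 2 g/kg (a 20% solution in saline) or left untreated. No saline injection is recorded for the untreated mice, so ethanol and the injection itself cannot be told apart. Each condition had 3 replicates of H3K27ac, of acetylation at lysine 9 (H3K9ac) and of input chromatin, which makes 36 samples. The deposited peak lists hold 1 list for each mark and condition, which all 3 replicates share. No error between mice can therefore be attached to any value, and no test between conditions was possible. Values over the 4 conditions follow the order untreated control, ethanol-treated control, untreated knockdown, ethanol-treated knockdown. Percentages carry 95% Wilson intervals where given, which cover counting error only and treat neighbouring regions as if they were independent.

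H3K27ac lies on nucleosomes of active enhancers and promoters and is written mainly by the acetyltransferases p300 and CBP, whereas H3K9ac is found chiefly at active promoters. Both acetylations use acetyl-CoA. The liver oxidises ethanol to acetate, which reaches the brain with the blood, and acetyl-CoA synthetase 2 (ACSS2) makes acetyl-CoA from acetate in the cytosol and nucleus. The 4 groups were compared to ask whether histone acetylation after ethanol depends on ACSS2 in the hippocampus.

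Promoter sequences of 4 members are given as examples. Only 556 of the 7087 members (7.85%) lay within 1000 bp of a gene end, so promoters are not typical of members. The sources used here held sequence for promoter windows only. RefSeq promoters (GRCm38.p6) run from 250 bases before to 50 after the transcription start, on the strand of the gene. Capitals mark the bases inside the member region, and the lower-case bases lie outside it. These 4 genes were chosen after their values were seen. Kctd6 (chr14:8213831-8214130, plus strand) and Rps9 (chr7:3703791-3704090, plus strand) stand for members beside a peak that ethanol-treated control mice kept. Mtnr1a (chr8:45068857-45069156, plus strand) and Elavl4 (chr4:110286785-110287084, minus strand) stand for members with no such peak nearby.
Kctd6: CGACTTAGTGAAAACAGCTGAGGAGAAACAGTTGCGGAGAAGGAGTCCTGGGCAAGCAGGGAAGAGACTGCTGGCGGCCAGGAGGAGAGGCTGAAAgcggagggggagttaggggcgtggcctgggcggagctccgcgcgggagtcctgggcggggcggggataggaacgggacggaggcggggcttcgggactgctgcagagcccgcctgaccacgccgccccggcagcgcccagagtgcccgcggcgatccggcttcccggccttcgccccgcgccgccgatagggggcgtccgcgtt
Rps9: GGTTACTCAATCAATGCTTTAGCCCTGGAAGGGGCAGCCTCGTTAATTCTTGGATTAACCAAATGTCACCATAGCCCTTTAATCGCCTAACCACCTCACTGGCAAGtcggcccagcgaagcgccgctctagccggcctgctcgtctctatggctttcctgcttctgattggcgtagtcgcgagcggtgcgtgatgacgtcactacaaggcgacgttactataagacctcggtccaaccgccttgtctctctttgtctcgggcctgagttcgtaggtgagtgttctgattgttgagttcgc
Mtnr1a: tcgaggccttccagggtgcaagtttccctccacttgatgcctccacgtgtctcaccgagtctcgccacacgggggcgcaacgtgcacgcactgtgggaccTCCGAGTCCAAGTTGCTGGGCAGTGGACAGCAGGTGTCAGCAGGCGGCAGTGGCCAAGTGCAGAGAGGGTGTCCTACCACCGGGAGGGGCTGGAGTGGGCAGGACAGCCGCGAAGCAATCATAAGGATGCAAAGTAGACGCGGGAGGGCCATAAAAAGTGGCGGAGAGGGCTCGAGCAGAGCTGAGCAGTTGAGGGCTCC
Elavl4: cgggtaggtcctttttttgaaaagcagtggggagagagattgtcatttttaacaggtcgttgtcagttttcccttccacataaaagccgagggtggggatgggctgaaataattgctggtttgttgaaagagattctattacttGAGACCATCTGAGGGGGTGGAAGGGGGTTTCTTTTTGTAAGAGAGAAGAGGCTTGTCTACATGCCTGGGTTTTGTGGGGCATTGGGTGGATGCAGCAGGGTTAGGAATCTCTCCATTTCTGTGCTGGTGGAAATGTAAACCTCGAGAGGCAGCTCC
The member at Kctd6 ended 96 bases into its promoter window, which holds 33 CpG dinucleotides and 4 GC boxes (GGGCGG, either strand). At Rps9 the member held the first 106 bases, upstream of the cyclic AMP response element (TGACGTCA) found in that window. The member at Mtnr1a held 200 of the bases, with 17 CpG in the window, and the member at Elavl4 held the last 156, with 4 CpG in the window.

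Kctd6 encodes an adaptor of cullin-3 ubiquitin ligases. The member at its start (chr14:8213525-8213926, 402 bp) had 302, 0, 299 and 372 bp inside H3K27ac peaks in the 4 conditions. The score of a peak is the authors' value, read as the −log10 of its q-value, and it stood at 17.7, 14.9 and 14.3 in the 3 lists that held this member. A peak of the ethanol-treated control list lay 340 bp away, so acetylation next to the Kctd6 start was called there too. H3K9ac, which the choice of members did not use, covered 221, 0, 229 and 136 bp of this member in the same order. Both marks thus had a peak in the same 3 conditions and none in ethanol-treated control mice.

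The member upstream of Rps9, which encodes a protein of the small ribosomal subunit (chr7:3703513-3703896, 384 bp), had 254, 0, 318 and 347 bp inside H3K27ac peaks. H3K9ac peaks covered 295, 189, 359 and 310 bp of it, so this mark was called in all 4 conditions where H3K27ac was called in 3. The nearest H3K27ac peak of ethanol-treated control mice was 156 bp away.

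At Mtnr1a, a melatonin receptor gene, the member spanned 398 bp (chr8:45068957-45069354). H3K27ac peaks covered 286, 0, 242 and 398 bp, with scores of 11.5, 10.7 and 15.6 where present. The nearest peak of the ethanol-treated control list was 40196 bp away, and H3K9ac had a peak here in untreated control mice and in no other list. The Elavl4 member (chr4:110286455-110286940, 486 bp) lies at a start of the gene for the neuronal RNA-binding protein HuD. Its H3K27ac peaks covered 197, 0, 339 and 486 bp with scores of 8.65, 7.24 and 10.1, the nearest ethanol-treated control peak was 64206 bp away, and H3K9ac was missing in ethanol-treated control mice alone. These 2 starts therefore had no H3K27ac peak around them in ethanol-treated control mice, in contrast to Kctd6 and Rps9.

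The number of members has to be read beside the lengths of the lists. The H3K27ac lists of the 4 conditions were 89935, 86110, 101690 and 119317 peaks long. Regions missing only in the other lists numbered 5661 for untreated control, 2943 for untreated knockdown and 1443 for ethanol-treated knockdown, so the counts run opposite to the list lengths. With every list cut to its 86110 highest-scoring peaks, the 4 counts were 4452 for ethanol-treated control, 3973 for untreated control, 3226 for untreated knockdown and 2628 for ethanol-treated knockdown. The order was the same and the spread smaller. Numbers of reads are not given in the sources used here, and the part of sequencing depth in these counts was not tested. In bulk tissue, fewer cells of a type and less acetylation per cell also cannot be told apart.

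Members were of low to middling score. Their width had a median of 442 bp, with quartiles of 334 and 589.5 bp and a range from 151 to 1831 bp, and together they spanned 3.45 Mb. Regions in all 4 lists, of which there were 40548, had a median width of 915 bp, and all merged regions had one of 290 bp. Regions missing only in untreated control, untreated knockdown or ethanol-treated knockdown mice had medians of 429, 395 and 364 bp. A width between that of all merged regions and that of regions present throughout was thus not particular to members. Members' scores had medians of 5.23 in untreated control, 6.19 in untreated knockdown and 6.77 in ethanol-treated knockdown mice, in lists that start at 3.0. As a percentile within its list, the median member stood at 31.0, 41.9 and 52.2, while regions in all 4 lists stood at 72.6, 77.7 and 81.4 in those lists. Scores in the top 10% of these 3 lists were reached by 1, 2 and 3 members.

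**Figure D1:**
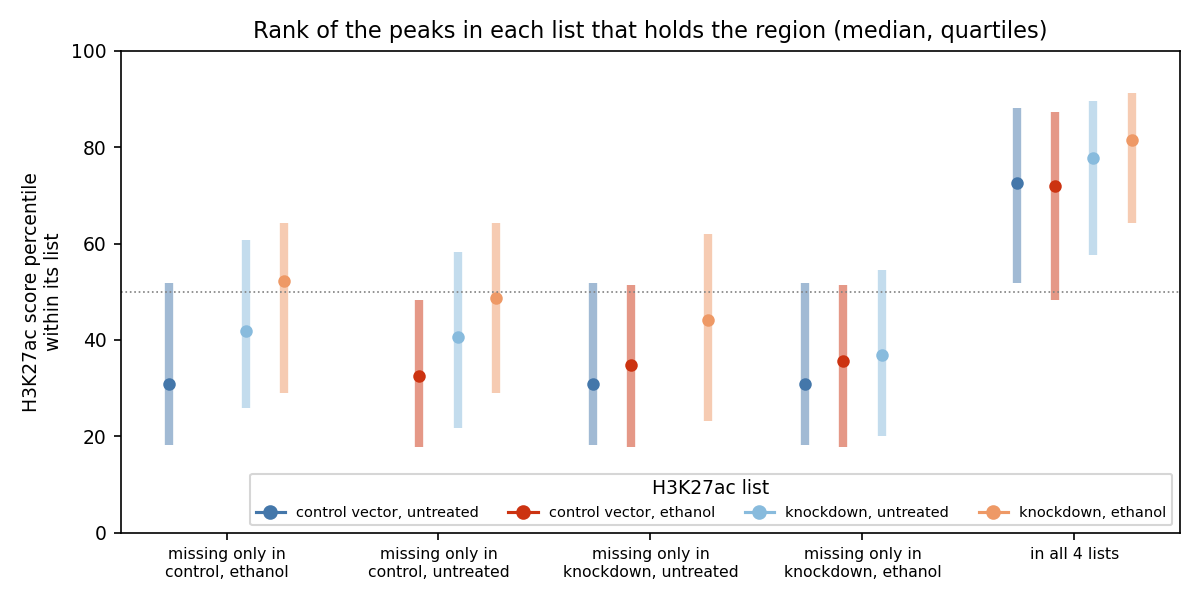
H3K27ac score percentile within each list (vertical axis, %) for regions missing from a single list and for regions in all 4 lists. Points are medians over regions and bars run from the lower to the upper quartile. Members (leftmost group) had medians of 31.0, 41.9 and 52.2, below the 72.0 to 81.4 of regions in all 4 lists, and the other missing-only groups lay in the same low range.

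For 3297 members (46.5%) the highest percentile was in ethanol-treated knockdown mice, for 2268 (32.0%) in untreated knockdown mice and for 1522 (21.5%) in untreated control mice. Peaks covered a median of 77.5%, 66.1% and 54.9% of the member's width in those conditions. On regions in all 4 lists these medians were 87.99%, 80.18% and 72.46%, in the same order. Regions missing only in untreated control mice had 78.11% in ethanol-treated knockdown, 66.04% in untreated knockdown and 54.43% in ethanol-treated control mice. Higher coverage in the knockdown lists was thus not particular to members. Those lists were also longer, at 119317 and 101690 peaks against 89935 in untreated control mice. The part of list length was not tested. In 707 members (9.98%) all 3 peaks were above the median of their list, and in 227 (3.20%) all 3 were in the lowest 25%. Near the threshold, the lowest of a member's 3 scores ranged from 3.01 to 19.4 with a median of 4.48, and it was under 4 in 2291 members (32.3%). On the other side of the rule, the weakest ethanol-treated control peaks of regions in all 4 lists scored 3.06, and 1510 such regions (3.72%) had an ethanol-treated control score under 4.

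Many members flanked acetylation that ethanol-treated control mice retained. The gap from a member to the nearest H3K27ac peak of that list had a median of 839 bp, with quartiles of 282 and 4862.5 bp. Within 1000 bp of such a peak lay 3789 members (53.5%), and 1248 members (17.6%) were more than 10 kb away. Regions missing only in untreated control, untreated knockdown or ethanol-treated knockdown mice had median gaps to their own missing list of 715, 453 and 379 bp, with 14.8%, 10.8% and 9.08% beyond 10 kb. Longer lists leave shorter gaps to a nearest peak, and the part of list length in this order was not tested.

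**Figure D2:**
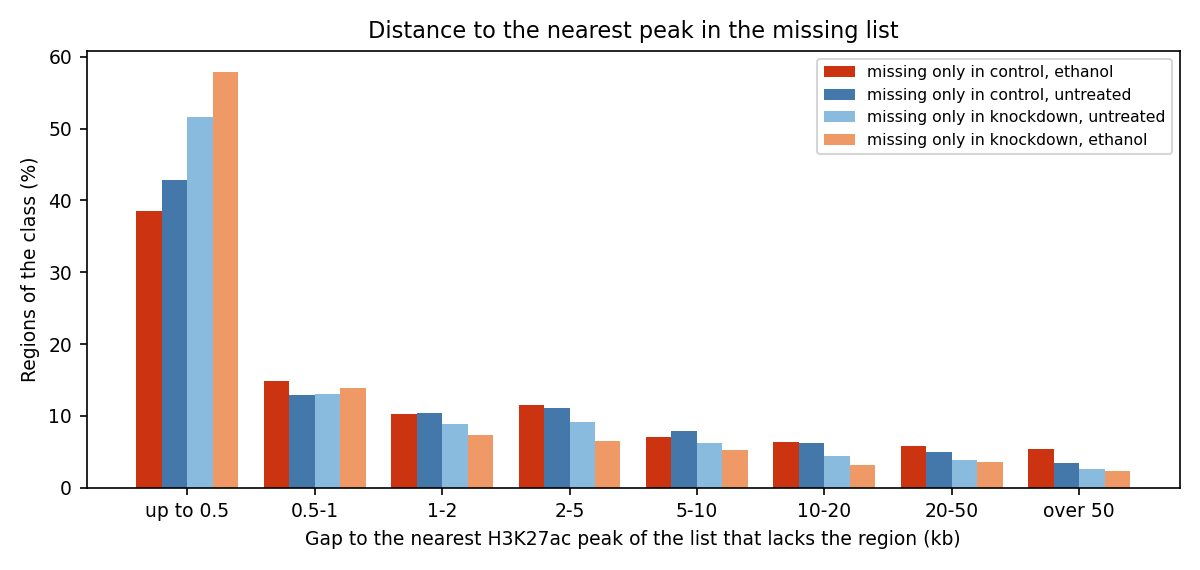
Percentage of regions (vertical axis) by the gap in kb to the nearest H3K27ac peak of the list that lacks them, for the 4 kinds of region missing from a single list. Of the members (red), 38.6% lay within 0.5 kb and 5.36% beyond 50 kb, against 57.9% and 2.36% of regions missing only in ethanol-treated knockdown mice.

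Beyond 100 kb from any H3K27ac peak of ethanol-treated control mice lay 194 of the 7087 members, with a median width of 403 bp. Of these, 78 were at or inside protein-coding genes, 7 were on chromosome X, and 135 (69.6%) had no H3K9ac peak in any list. Beyond 100 kb from a peak of their own missing list lay 72 of 5661 regions missing only in untreated control mice. For regions missing only in untreated knockdown and in ethanol-treated knockdown mice it was 39 of 2943 and 21 of 1443. Over chromosomes, members made up 4.44% (chromosome 10) to 5.12% (chromosome 16) of the regions on the autosomes. On chromosome X they made up 3.25% (44 of 1353 regions, interval 2.43% to 4.34%), the same 3.25% as the regions missing only in untreated control mice.

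Members often lay close together. Within 10 kb of another member lay 2493 (35.2%), against 27.3%, 17.3% and 11.1% for regions missing only in untreated control, untreated knockdown and ethanol-treated knockdown mice. More regions on the same genome lie closer to each other, and the 4 kinds of region differ in number. Chains of 4 or more members with gaps of at most 10 kb numbered 97. The longest held 9 members over 38.4 kb inside Celf2 (chr2:7234790-7273152), a gene for an RNA-binding splicing regulator. The 4 lists had 21, 11, 26 and 31 H3K27ac peaks on that stretch. A chain of 8 members lay in Bcl11b (chr12:107920370-107937926), which encodes a zinc-finger transcription factor, with 16, 10, 21 and 20 peaks. In Fbxo34 (chr14:47513390-47528287), 10, 2, 12 and 14 peaks were called around 6 members. In each of these 3 stretches ethanol-treated control mice had the fewest peaks, which follows from how the chains were chosen.

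Members lay mainly inside genes, as merged regions did in general. Of the 7087, 4630 (65.3%, interval 64.2% to 66.4%) were inside a protein-coding gene and 1901 (26.8%, 25.8% to 27.9%) outside genes, against 60.7% and 23.6% of all merged regions. Within 1000 bp of either end of such a gene lay 556 (7.85%, 7.24% to 8.49%), against 15.7% of all merged regions and 38.2% of regions in all 4 lists. The share at gene ends was 9.98% (9.23% to 10.8%), 10.7% (9.60% to 11.8%) and 9.15% (7.77% to 10.7%) for regions missing only in untreated control, untreated knockdown and ethanol-treated knockdown mice. Members thus had the lowest share of the 4 kinds, with an interval that overlapped only the last of these.

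At gene ends, 595 protein-coding genes had a member, out of 14377 with any H3K27ac region at an end. For 476 of them ethanol-treated control mice had another H3K27ac peak at an end of the same gene, and for 119 they had none. Where the strand was known, the member was at the start of 244 genes and at the far end only of 222. The strand was not given for the remaining 129.

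Besides Kctd6 and Rps9, the gene-end members that ranked highest in all 3 lists were at Lyrm9, Gmnn, Rimbp2 and Adcy8. Rimbp2 encodes a scaffold of the presynaptic active zone that ties calcium channels to RIM proteins. Its member (chr5:128953388-128953699, 312 bp, at a start) had 229, 0, 274 and 312 bp inside H3K27ac peaks, and its score of 28.1 in untreated control mice was the highest of all members in that list. H3K9ac covered 133 bp of it in ethanol-treated knockdown mice and none in the other conditions. Another member lay inside the same gene (chr5:128877917-128878801, 885 bp), with 509, 0, 742 and 883 bp.

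Adcy8 encodes an adenylyl cyclase that calcium and calmodulin stimulate. The member by its upper end (chr15:64922834-64923383, 550 bp) had 400, 0, 433 and 550 bp inside H3K27ac peaks and 265, 0, 199 and 0 bp inside H3K9ac peaks. Here the 2 marks differed in ethanol-treated knockdown mice, where H3K27ac was called and H3K9ac was not. Gmnn encodes geminin, which keeps DNA from being replicated again within a cell cycle. Its member (chr13:24761600-24762294, 695 bp) had 695, 0, 565 and 633 bp in H3K27ac peaks, yet H3K9ac was present in every condition, with 546, 341, 694 and 552 bp. Lyrm9 (chr11:78827557-78827962, 406 bp) had 273, 0, 228 and 351 bp inside H3K27ac peaks and no H3K9ac peak in any list. Of these 6 gene ends, the H3K9ac peak was thus missing in ethanol-treated control mice but present in the other 3 conditions at Kctd6 alone. All 6 had an ethanol-treated control H3K27ac peak within 340 bp.

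**Figure D3:**
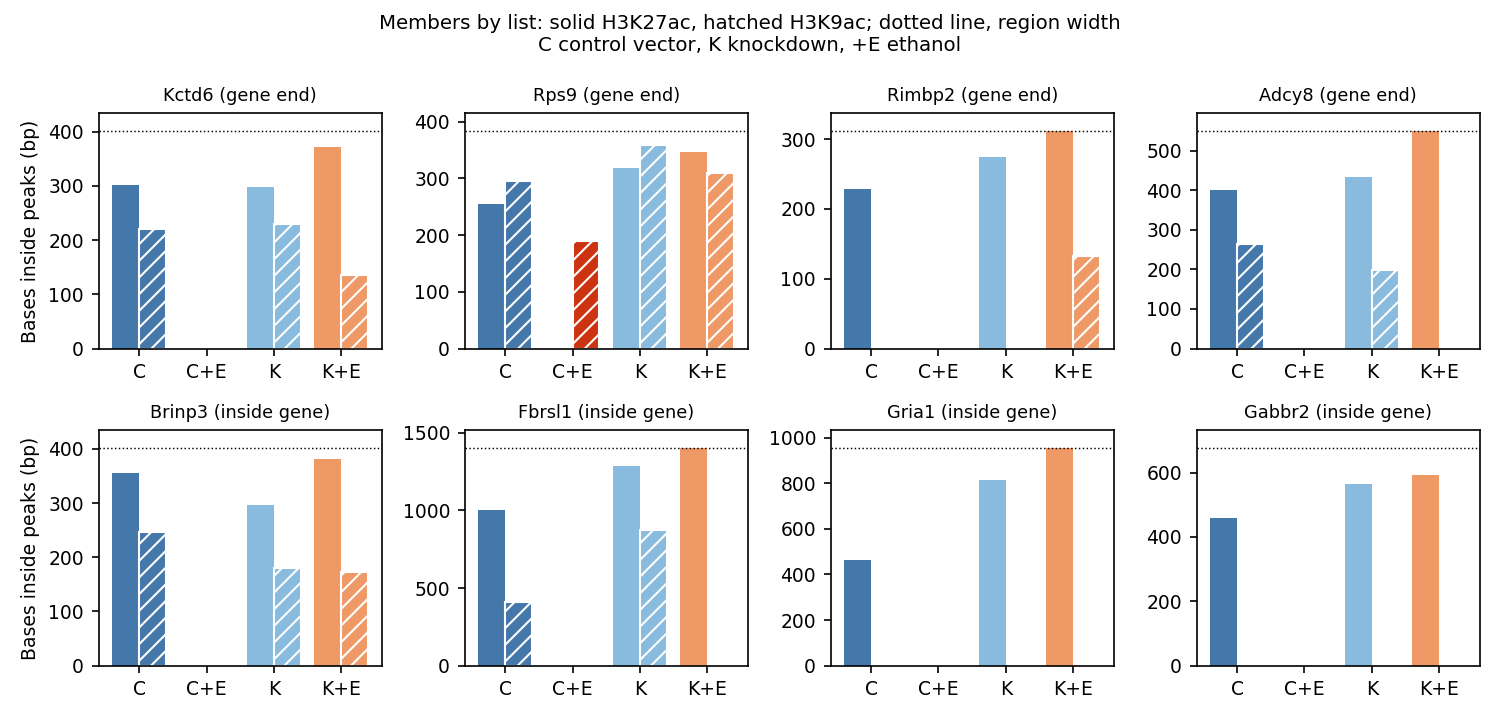
Bases inside peaks (vertical axis, bp) for 8 members in the 4 conditions, H3K27ac as solid bars and H3K9ac as hatched bars; the dotted line is the width of the region. By the rule no solid bar stands above C+E (control vector, ethanol), and a hatched bar stands there for Rps9 only, at 189 bp.

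Inside genes the highest ranking members were in Atrnl1, Fbrsl1, Hivep3, Rimbp2, Brinp3 and Arhgap26. The member in Fbrsl1 (chr5:110405073-110406475) was among the wide members at 1403 bp, with 1001, 0, 1286 and 1403 bp inside H3K27ac peaks and scores of 19.9, 27.7 and 16.3. H3K9ac covered 411, 0, 871 and 0 bp of it, and the nearest ethanol-treated control H3K27ac peak was 9602 bp away. The Brinp3 member (chr1:146724887-146725288, 402 bp) had 355, 0, 296 and 381 bp inside H3K27ac peaks and 246, 0, 180 and 173 bp inside H3K9ac peaks. It lay 225833 bp from the nearest ethanol-treated control H3K27ac peak. In Atrnl1 (chr19:57849548-57849862, 315 bp) H3K27ac covered 232, 0, 315 and 250 bp with scores of 20.2, 33.5 and 19.4, and no list had H3K9ac. The gaps of the other 3 ranged from 114 bp in Hivep3, a zinc-finger transcription factor gene, to 14222 bp in Arhgap26, which encodes a GTPase-activating protein.

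Outside genes, the member on chromosome X (chrX:97431486-97431698, 213 bp) was the farthest from ethanol-treated control acetylation among the named members, at 718155 bp. H3K27ac covered 203, 0, 161 and 197 bp of it and H3K9ac 170, 0, 152 and 130 bp. Another, at chr14:19839703-19839952, had 223, 0, 214 and 229 bp in H3K27ac peaks but 167, 250, 163 and 227 bp in H3K9ac peaks, so H3K9ac covered its full 250 bp in the condition that lacked H3K27ac. The other 4, on chromosomes 11, 12, 13 and 17, had no H3K9ac peak in any list.

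The 6 widest members spanned 1635 to 1831 bp. In Arhgap44 (chr11:65069208-65071000, 1793 bp) 1319, 0, 1154 and 1707 bp lay inside H3K27ac peaks, and the nearest ethanol-treated control peak was 18257 bp away. Of the 6, H3K9ac was found on the member at chr8:70934709-70936460 alone, with 151 bp in ethanol-treated knockdown mice.

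H3K9ac is the readout that the rule left out, although it comes from chromatin of the same conditions and possibly the same mice. Inputs are recorded by condition and not by mark, so the peaks of both marks were possibly called against the same inputs. Whether the inputs had a part in the pattern of both marks was not tested. Any of the 4 H3K9ac lists had a peak on 1448 members (20.4%, interval 19.5% to 21.4%), and 5639 (79.6%) had none, against 26.2% and 73.8% of all merged regions. With the control vector, 702 members (9.91%, 9.23% to 10.6%) had an H3K9ac peak in untreated mice and 277 (3.91%, 3.48% to 4.39%) after ethanol. With the knockdown vector the counts were 725 (10.2%, 9.55% to 11.0%) in untreated mice and 897 (12.7%, 11.9% to 13.5%) after ethanol. Over all merged regions the shares were 19%, 14.3%, 18.5% and 20.7% in the same order. On members the H3K9ac count of ethanol-treated control mice was thus 0.395 times that of untreated control mice, while over all merged regions it was 0.754 times. In the knockdown the ratios of ethanol-treated to untreated counts were 1.24 on members and 1.12 over all merged regions.

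A low H3K9ac share in ethanol-treated control mice was not particular to the members. On regions missing only in untreated control, untreated knockdown or ethanol-treated knockdown mice the ratio of ethanol-treated to untreated control counts was 0.464, 0.432 and 0.491, and on regions in all 4 lists it was 0.829. The share with an ethanol-treated control H3K9ac peak was 4.95% (4.41% to 5.54%), 6.01% (5.21% to 6.93%) and 5.68% (4.60% to 7.0%) on those 3 kinds, above the members' 3.91% (3.48% to 4.39%) with intervals that did not overlap it. In untreated control mice the members' share was lowest too, at 9.91% against 10.7%, 13.9% and 11.6%. A peak in any H3K9ac list was on 20.4% of members, against 23.2%, 25.2% and 22.2%. In ethanol-treated knockdown mice the members' 12.7% was above the 11.5% of regions missing only in that condition. Members also had the lowest share at gene ends. The H3K9ac list of ethanol-treated control mice was also the shortest of its mark, at 31042 peaks against 38235 in untreated control mice.

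**Figure D4:**
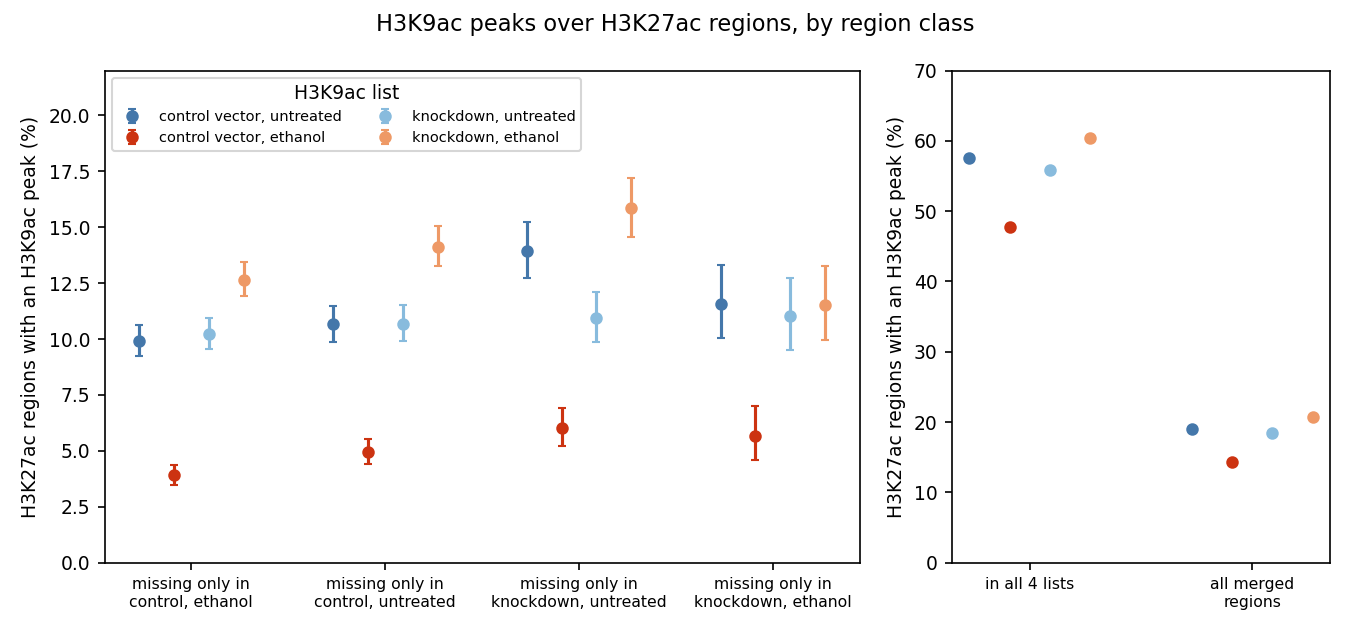
Percentage of H3K27ac regions with an H3K9ac peak (vertical axis) in each of the 4 conditions, for regions missing from a single H3K27ac list (left) and for regions in all 4 lists and all merged regions (right, another scale). Points are shares and bars 95% Wilson intervals, which are narrower than the points on the right. Ethanol-treated control mice had the lowest share in every group, 3.91% on members and 14.3% over all regions.

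The same pattern in both marks was rare. H3K9ac was missing in ethanol-treated control mice alone on 163 members (2.30%, interval 1.98% to 2.68%), close to the 2.03% over all merged regions. The other missing-only kinds of region had 2.28%, 1.94% and 1.73%, and regions in all 4 lists had 5.28%. H3K9ac was present in all 4 lists on 114 members (1.61%), against 12.2% of all merged regions. It was missing only in untreated control mice on 25, only in ethanol-treated knockdown mice on 18 and only in untreated knockdown mice on 14. Over all merged regions these last 3 patterns made up 0.31%, 0.21% and 0.456%. At gene ends the pattern of both marks was seen on 41 of 556 members (7.37%), inside genes on 81 (1.75%) and outside genes on 41 (2.16%). The same shares over all merged regions were 3.96%, 1.58% and 1.88%, so the members' share was above that background at gene ends and near it elsewhere. The other missing-only kinds of region were not split by position, so whether the gene-end share is particular to members was not tested. The members' H3K9ac shares at gene ends were 27.2%, 11.3%, 29.3% and 29.5%, against 65.1%, 58.3%, 64.0% and 66.2% of all merged regions there. Inside genes they were 8.68%, 3.20%, 8.70% and 11.4%, against 10.1%, 5.75%, 9.60% and 11.8%. The lower share of ethanol-treated control mice was thus present both at promoters or gene ends and within genes, as it was over all merged regions.

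Besides Kctd6, Brinp3 and the member on chromosome X, the highest ranking members with this pattern of both marks were by Rapgefl1 and at 2 places outside genes. At the far end of Rapgefl1 (chr11:98851765-98852479, 715 bp) H3K27ac covered 442, 0, 572 and 514 bp and H3K9ac 175, 0, 342 and 428 bp. The member at chr1:165018888-165019368 (481 bp) had 325, 0, 481 and 378 bp of H3K27ac and 380, 0, 369 and 300 bp of H3K9ac. The member at chr5:74092467-74092894 (428 bp) had 252, 0, 370 and 358 bp and 180, 0, 147 and 335 bp. These 3 had an ethanol-treated control H3K27ac peak 345, 193 and 193 bp away.

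Members within 1000 bp of an ethanol-treated control H3K27ac peak and the 3298 members without such a peak were compared on H3K9ac. The shares were 11.1%, 4.59%, 11.9% and 14.6% in the first set and 8.52%, 3.12%, 8.28% and 10.5% in the second. Ethanol-treated control mice were lowest in both, so the low H3K9ac share was not limited to members at the edge of a retained peak. Gene ends made up 9.66% of the first set and 5.76% of the second.

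Genes with many acetylated regions held the most members. Counting each gene with 10 kb on both sides, 3870 protein-coding genes held a member, of which 2580 held 1 and 224 held 5 or more. Tcf4, a basic helix-loop-helix transcription factor gene, held the most, with 30 members among 280 regions (10.7%) and 91 regions present in all 4 lists. Prkce, encoding protein kinase C epsilon, had 23 of 207 regions (11.1%) and Celf2 23 of 186 (12.4%). Gabbr2, encoding a subunit of the GABA-B receptor, had 21 of 187 (11.2%). Grin2a and Gria1 encode the GluN2A subunit of NMDA receptors and the GluA1 subunit of AMPA receptors, and they had 21 of 161 (13.0%) and 19 of 147 (12.9%). Regions missing only in untreated control mice numbered 10, 5, 4, 5, 3 and 3 in these 6 genes, which were picked for their members, so the lower counts follow from that choice.

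In Gria1 the highest ranking member (chr11:57314089-57315043, 955 bp) had 462, 0, 816 and 955 bp inside H3K27ac peaks with scores of 10.5, 12.5 and 13.7, and an ethanol-treated control peak lay 272 bp away. In Gabbr2 (chr4:46684383-46685059, 677 bp) H3K27ac covered 458, 0, 565 and 591 bp, with the nearest such peak 5626 bp away. In Grin2a (chr16:9894932-9895714, 783 bp) the values were 298, 0, 350 and 639 bp, and in Prkce (chr17:86352577-86354010, 1434 bp) 360, 0, 930 and 886 bp. None of these 4 had an H3K9ac peak, other than 133 bp in Prkce in ethanol-treated knockdown mice. In Gria1, Gabbr2 and Grin2a the bases covered were highest in ethanol-treated knockdown mice, the condition with the longest list.

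Gene lists for hippocampal cell types and pathways were described by the members' share of all merged regions within 10 kb of their genes. Over all protein-coding genes, members were 5666 of 125002 regions (4.53%, interval 4.42% to 4.65%), and regions missing only in untreated control mice were 3.72%. For GABA receptors and transport the share was 34 of 346 regions (9.83%, 7.12% to 13.4%) in 8 of 18 genes. Gabbr2 and Gabrb1, a GABA-A receptor subunit gene with 5 members, supplied most of them. Without these 2 genes 6.56% of the regions were members, with peaks scoring 4 or more 6.38% and with lists of equal length 5.82%, so its place above the next lists does not hold. Excitatory neuron markers, described below, had 6.96% without their 2 leading genes and 8.41% and 7.54% under the same settings. For glutamate receptors and postsynaptic scaffolds it was 82 of 1003 (8.18%, 6.64% to 10.0%) in 18 of 28 genes, and 6.04% without Grin2a and Gria1. Sodium, calcium and HCN channel genes had 54 of 723 (7.47%, 5.77% to 9.62%) in 15 of 24 genes, led by the calcium channel genes Cacna1e with 15 members and Cacna1c with 11. In these 3 lists regions missing only in untreated control mice made up 2.31%, 2.29% and 2.90%, below the 3.72% of all genes.

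**Figure D5:**
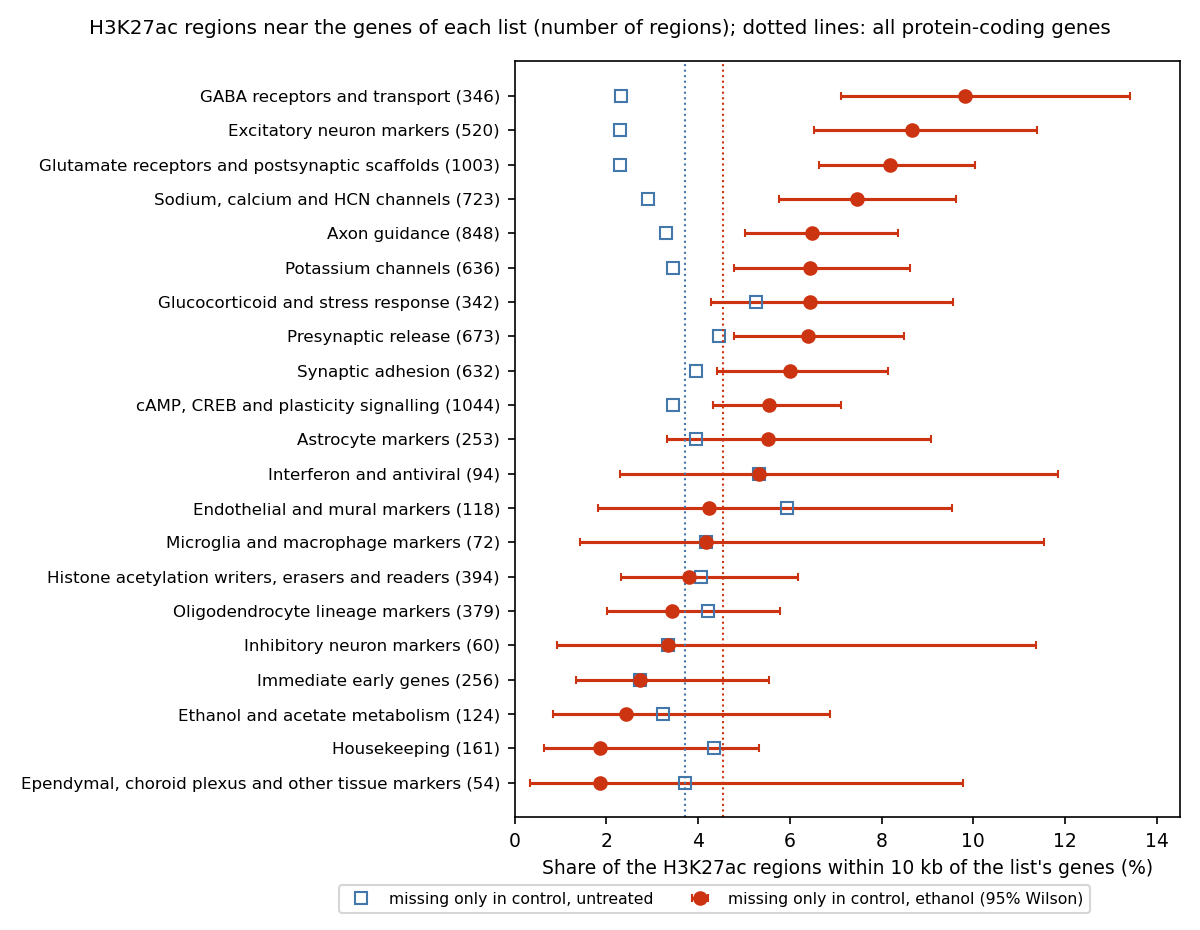
Members as a percentage of the H3K27ac regions within 10 kb of the genes of each list (filled points, with 95% Wilson intervals), and regions missing only in untreated control mice (open squares). Dotted lines mark all protein-coding genes, at 4.53% and 3.72%. Lists of receptors, ion channels and excitatory neuron markers lay to the right of the line for members, at up to 9.83%, and housekeeping genes to its left at 1.86%.

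Axon guidance, potassium channel, presynaptic, adhesion and plasticity lists lay between these and the level of all genes. Axon guidance genes had 6.49% (5.02% to 8.35%, 55 of 848 regions in 18 of 29 genes), with 9 members in Plxna4, a semaphorin co-receptor gene, and 7 in Slit3, a guidance ligand gene. Potassium channel genes had 6.45% (4.79% to 8.63%) in 12 of 24 genes, led by Kcnd3 with 7 members and Kcnq3 with 5. Presynaptic release genes had 6.39% (4.78% to 8.5%) in 16 of 29 genes, led by the active zone scaffold genes Bsn with 8 and Erc2 with 7. Synaptic adhesion genes had 6.01% in 17 of 28 genes, with 6 members each in Cadm1 and Clstn2, and cAMP, CREB and plasticity signalling genes had 5.56% in 15 of 28. In the plasticity list Ppp3ca, the catalytic subunit gene of calcineurin, held a member (chr3:136673309-136673762, 454 bp) with 377, 0, 401 and 394 bp of H3K27ac and 331, 0, 212 and 454 bp of H3K9ac. An ethanol-treated control H3K27ac peak lay 753 bp from it. Immediate early genes, which neuronal activity switches on, had 2.73% in 6 of 24 genes, with 2 members within 10 kb of Nr4a1 and 1 within 10 kb of Arc. Housekeeping genes had 3 of 161 regions (1.86%, 0.636% to 5.33%).

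Markers of the cell types that dorsal hippocampus could hold were listed too. Excitatory neuron markers had 45 of 520 regions as members (8.65%, 6.53% to 11.4%) in 11 of 20 genes, with 19 in Zbtb20, a transcription factor gene of hippocampal pyramidal neurons, and 10 in Grik4, a kainate receptor gene. Astrocyte markers had 14 of 253 (5.53%, 3.32% to 9.07%) and oligodendrocyte lineage markers 13 of 379 (3.43%, 2.02% to 5.78%). Inhibitory neuron markers had 2 of 60, microglia and macrophage markers 3 of 72, endothelial and mural markers 5 of 118, and markers of ependyma, choroid plexus and other tissues 1 of 54. The member at the start of Irf8, from the microglia list (chr8:120736325-120736628, 304 bp), had 244, 0, 246 and 167 bp of H3K27ac. H3K9ac covered 286, 0, 190 and 304 bp of it, and an ethanol-treated control H3K27ac peak lay 59 bp away. The number of marker genes with an H3K27ac peak at an end was 18 of 20 for excitatory neurons in every condition, and 16, 17, 16 and 19 of 20 for oligodendrocytes. For ependyma, choroid plexus and other tissues it was 7, 6, 8 and 8 of 20.

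Bases inside H3K27ac peaks moved unevenly between these marker lists. They come from the same peaks that the rule used and are a description only. The whole H3K27ac lists covered 40.1, 38.1, 47.8 and 57.4 Mb, so ethanol-treated control mice were lowest there as well. Within 10 kb of excitatory neuron markers, bases inside peaks averaged 8.45, 6.77, 9.84 and 12 kb per gene. Oligodendrocyte markers had 4.74, 5.56, 4.96 and 5.45 kb. Ethanol-treated control mice were thus lowest of the 4 on the first list and highest on the second. They were lowest on astrocyte markers too, at 2.80, 2.41, 3.25 and 4.39 kb. Inhibitory neuron markers had 0.581, 0.638, 0.769 and 0.938 kb, and markers of ependyma, choroid plexus and other tissues 1.14, 1.18, 1.19 and 1.57 kb. On both, untreated control mice were lowest. Microglia and macrophage markers had 0.993, 0.992, 1.30 and 1.43 kb, and endothelial and mural markers 1.29, 1.28, 1.69 and 2.27 kb. Whether the cell makeup of the pooled tissue had a part in the members' share near neuronal genes was not tested.

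Genes of ethanol and acetate metabolism had 3 of 124 regions as members (2.42%), in Acss1 and Acss2. Acss1 encodes the mitochondrial acetyl-CoA synthetase and held 2 of its 26 regions. For Acss2 it was 1 of 8 regions (chr2:155508194-155508655, 462 bp), which lies in the neighbouring gene Ggt7 and not at an Acss2 end. This member had 462, 0, 145 and 259 bp inside H3K27ac peaks with scores of 6.04, 4.22 and 6.0, and an ethanol-treated control peak lay 325 bp away. Histone acetylation writers, erasers and readers had 3.81% of their regions as members in 9 of 28 genes, with 5 in the acetyltransferase gene Kat6b and 2 in Kat6a. Glucocorticoid and stress response genes had 6.43% (4.29% to 9.55%) in 11 of 22 genes, with 8 in Zbtb16 and 3 by the metallothionein gene Mt2. Interferon and antiviral genes had 5 of 94 regions as members.

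The promoters that a member overlapped were intermediate in base composition. Of 32851 RefSeq promoter windows, 241 (of 222 genes) overlapped a member. They had a median GC content of 55.7% and a median of 9 CpG, against 62.0% and 21 for 14493 windows that overlapped a region in all 4 lists and 46.7% and 3 for 16679 windows with no H3K27ac region. The 331 windows over a region missing only in another list had 57.0% and 9, close to the members. Windows of protein-coding genes made up 65.1% of the members' windows and 67.1% of those of the other missing-only regions. They made up 85.0% of windows over regions in all 4 lists and 47.5% of windows with no region. The part of this difference in the base composition was not tested. A GC box was found in 41.5% of the members' windows (interval 35.5% to 47.8%), in 45.6% of those of the other missing-only regions and in 65.3% of those of regions in all 4 lists. A cyclic AMP response element (TGACGTCA) was in 2.90%, 3.02% and 3.11%, an AP-1 motif (TGANTCA) in 7.88%, 8.46% and 4.26%, and an E-box (CACGTG) in 6.64%, 9.97% and 9.89%. Both strands were searched, and a match is a run of letters, not a bound site.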

How the data were processed

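Dorsal hippocampus chromatin was profiled by ChIP-seq for H3K27ac and H3K9ac, with inputs. The deposited files are 8 peak lists, kept at a false discovery rate of 0.001 per the labels. Tools named in the submitters' processing notes, without roles, are MACS2, bedtools, STAR 2.5.2a and bcl2fastq, with the build GRCm38 (mm10). The sources used here do not say how replicates were pooled. Each peak's score was taken as the authors' −log10 of a q-value, because no score is under 3.0, and served to rank peaks or set a minimum inside 1 list.

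Peaks on the 19 autosomes, X and Y were merged with Python 3.11.15 and pandas 2.3.3, in code tested on simulated data. Presence meant 1 shared base or more. A region was at a gene end within 1000 bp of either end of a protein-coding gene of the RefSeq table, otherwise inside a gene or outside. The planned windows at starts alone were not used, since strand was known for 17492 of 21887 genes. Wilson intervals (95%) cover counting error only. The depth of each list is unknown. Regions were named by a rule: the 6 with the highest lowest percentile at gene ends, inside genes, outside genes and among those with H3K9ac in the same 3 conditions, the 6 widest, the 6 genes with most members, the 2 leading genes of each of 21 gene lists, and Acss2. Of 488 list entries, 486 matched the table. The members and the lists were chosen with earlier results of these data known. Alternatives changed the score minimum, list length, merging gap, call of absence, overlap, H3K9ac call and gene window. Some regions that the rule names are not reported here.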

Additional observations from a re-analysis of the deposited data

Results flagged for a closer look

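The share of members with an H3K9ac peak moved in opposite directions with ethanol in the 2 vector groups. From untreated to ethanol-treated mice it changed by -6.00 percentage points with the control vector (9.91% to 3.91%) and by 2.43 points with the ACSS2 knockdown vector (10.2% to 12.7%). Over all merged H3K27ac regions the changes were -4.66 and 2.24 points, in the same directions. With 1 list per condition, the difference between the vector groups was not tested.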

How the results depend on the processing

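No paired analysis was possible because each deposited list pools the 3 replicates, and for the same reason no replicate could be left out. Of 65 alternative values, 25 stayed within the interval of the value above or, for counts, within 1.5 times, and 40 moved. The number of members was 4452 with H3K27ac lists of equal length, 4256 with peaks within 500 bp merged and 3298 with no ethanol-treated control peak allowed within 1000 bp. Under these 3 settings the H3K9ac share of members in untreated control mice was 11.5%, 8.11% and 8.52%, and in ethanol-treated control mice 4.42%, 2.84% and 3.12%. With an H3K27ac score of at least 4 these shares were 12% and 4.64%, with 25% of the region covered 11.4% and 4.45%, with an H3K9ac peak within 500 bp 16.6% and 8.99%, and with an H3K9ac score of at least 4 they were 8.48% and 3.02%. Ethanol-treated control mice were lower than untreated control mice under all 8 settings tried. None of these settings made the H3K9ac lists equal in length. As deposited, that of ethanol-treated control mice held 31042 peaks against 38235 in untreated control mice. The part of H3K9ac list length in this difference was therefore not tested. The gene-end share was 8.55% at a score of 4, 5.80% with merging, 5.76% without nearby peaks, 4.97% with a 500 bp window and 22.6% with a 5000 bp window. Genes with a member at an end numbered 393 with lists of equal length, 270 with merging and 204 without nearby peaks, and 368 and 1821 with the 500 bp and 5000 bp windows. For the gene lists, alternatives were added after seeing the data. With equal list lengths the members' share was 5.93% for glutamate receptors, 5.82% for GABA receptors and 3.32% for all genes. Without nearby peaks it was 4.19%, 5.49% and 1.96%, and 3.27% for excitatory neuron markers. For GABA receptors it was 6.38% at a score of 4, and without the 2 leading genes it was 6.56% there and 6.04% for glutamate receptors. All genes stood at 4.35% at a score of 4, 4.65% with merging and 5.18% with 25% covered. The cause was not tested where a value moved. Depth limits every count, since a peak absent from a list may lie just under its threshold.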

Other observations

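Of 1005 microRNA hairpins in the RefSeq table, 329 lay within 1000 bp of any merged H3K27ac region, 16 within 1000 bp of a member and 2 overlapped a member. The 2 overlapping hairpins were Mir1928 and Mir6923, chosen for mention after their positions were seen. Mir192 and Mir194-2, which lie side by side on chromosome 19, were 379 and 178 bp from a member, Mir148a was 650 bp and Mir125b-1 was 868 bp away. In the members' promoter windows a CCAAT box was found in 37.3% and a TATA box (TATAAA) in 9.13%. The shares were 34.4% and 8.76% in windows over the other missing-only regions, 36.2% and 6.02% over regions in all 4 lists, and 37.4% and 13.6% in all promoters.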
